A study of Homo sapiens with 18 samples.

Results

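The metallothioneins measured here were MT1E, MT1F, MT1G, MT1H, MT1M, MT1X, MT2A and MT3, which are small cysteine-rich proteins that bind zinc, copper and cadmium. Their probe sets were taken by gene symbol alone, as all those that name exactly 1 of these 8 genes. This gave 12 of the 54675 probe sets on the array, against 41097 probe sets and 19775 genes with a single name in all. The family itself was chosen with earlier results of these data known. The RNA came from A549 cells, an established line from a human lung adenocarcinoma that serves as a model of alveolar type II cells, so all values describe 1 tumour line. The cultures stood at the air-liquid interface, with medium below and the chamber atmosphere above, and were held in humidified chambers for 72 h. Each of 9 experiments placed cultures in an exposure chamber and in a reference chamber that never held formaldehyde, and gave 1 array per chamber. How many cultures gave the RNA of an array is not stated in the sources used here. The exposure chamber carried 0, 0.1 or 0.5 ppm formaldehyde in 3 experiments each, so that the 6 groups of 3 arrays were exposure and reference chamber at 0 ppm, exposure at 0.1 ppm and its reference, and exposure at 0.5 ppm and its reference. The 9 exposure arrays, those at 0 ppm included, share the exposure chamber, and the 9 reference arrays share the other one.

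Metallothioneins hold metal ions in clusters of cysteine thiolates, buffer free zinc and scavenge reactive species. Their transcription rises with free zinc, which the zinc finger factor MTF1 senses, and MTF1 then binds metal response elements before their start sites. Cadmium, oxidants and glucocorticoids also induce them, MT2A in particular. Aldehydes such as formaldehyde can react with cysteine thiols, and lung epithelial cells are known to raise metallothioneins under metal and oxidant stress. The question here was whether the genes of this family differed in level between chambers and between formaldehyde concentrations after 72 h.

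The upstream sequences are shown because metal response elements are the best known control sites of the family. RefSeq promoter sequences of build GRCh38.p14 were at hand for 3 of the 8 genes, MT2A (chr16:56608334-56608583), MT1X (chr16:56682220-56682469) and MT1H (chr16:56669564-56669813), all on the plus strand. Each run below is the 250 bases before the gene start, 5′ to 3′, and the capitals mark every match to the metal response element core, written TGCACNC or TGCGCNC, on either strand.
MT2A: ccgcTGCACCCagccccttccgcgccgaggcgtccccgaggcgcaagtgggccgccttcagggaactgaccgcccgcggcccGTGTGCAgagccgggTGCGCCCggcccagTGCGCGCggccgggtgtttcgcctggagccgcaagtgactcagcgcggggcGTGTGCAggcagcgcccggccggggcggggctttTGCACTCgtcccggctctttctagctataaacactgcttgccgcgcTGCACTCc
MT1X: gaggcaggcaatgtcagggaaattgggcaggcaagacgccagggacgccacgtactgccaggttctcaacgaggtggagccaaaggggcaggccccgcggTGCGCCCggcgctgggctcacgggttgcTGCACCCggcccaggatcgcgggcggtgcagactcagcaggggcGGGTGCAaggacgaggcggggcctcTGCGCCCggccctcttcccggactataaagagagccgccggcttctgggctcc
MT1H: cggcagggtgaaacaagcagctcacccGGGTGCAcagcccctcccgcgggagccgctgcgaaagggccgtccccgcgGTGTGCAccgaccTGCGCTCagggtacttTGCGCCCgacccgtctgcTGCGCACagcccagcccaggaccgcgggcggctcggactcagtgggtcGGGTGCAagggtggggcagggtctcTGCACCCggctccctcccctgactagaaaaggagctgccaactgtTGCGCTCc
The search found 7 cores before MT2A, 4 before MT1X and 8 before MT1H, and no match overlapped another. Of 35116 promoter windows of the same length, 24.8% held at least 1 core, 0.370% held at least 4, 0.0313% at least 7 and 0.0171% at least 8. The letters TATAAA, sought on the gene's own strand, stood before MT2A and MT1X, and 6.80% of all windows held them. A core closest to the start lay 8 to 2 bases before it in both MT2A and MT1H. Before each of the 3 genes a core on the opposite strand lay farther upstream, at 88 to 82 bases in MT2A and at 78 to 72 bases in both MT1X and MT1H. A further core lay at 54 to 48 bases in MT2A and at 53 to 47 bases in MT1X and MT1H. The window of SLC30A1, the plasma membrane zinc exporter that MTF1 also controls, held 1 core, and that of MTF1 itself held 0. These matches describe the letters only, and binding was not measured.

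**Figure D1:**
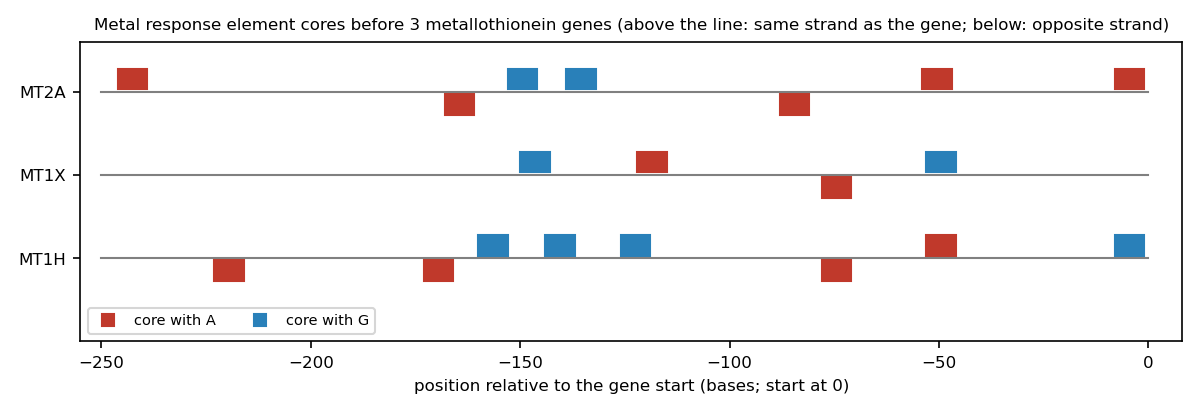
Positions of metal response element cores in the 250 bases before MT2A, MT1X and MT1H, with the distance from the gene start in bases on the x axis, boxes above a line for the gene's strand and below it for the opposite strand. MT2A holds 7 boxes, MT1X 4 and MT1H 8, and all 3 genes share a box below the line between 88 and 72 bases and a box above it between 54 and 47 bases before the start.

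All 8 genes lie in 1 cluster on chromosome 16 (GRCh38.p14), which runs over 94.7 kb from the start of MT3 at 56589528 to the end of MT1X at 56684196. From MT3 the order along the chromosome is MT2A, MT1E, MT1M, MT1F, MT1G, MT1H and MT1X. MT1E, MT1F, MT1G and MT1X had 2 probe sets each, and the others had 1 each. Of the 12 probe sets, 9 carry the suffix _x_at, with which the manufacturer marks probe sets whose probes may also match other transcripts, so signal from 1 metallothionein can reach the probe set of another. The accession behind MT1X 204326_x_at belongs to MT1L, a pseudogene of the same cluster that lies between MT2A and MT1E. No probe set was dropped from the tests. The mean log2 signal of 9 probe sets, from 6 genes, lay above that of the median probe set, and 3 probe sets, those of MT1M and MT3 and 1 of the 2 for MT1G (210472_at), stayed below a signal of 32 on every array. Signals of different probe sets depend on their probes and are not set against each other here.

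The values are MAS5 signals on a linear scale, scaled by the authors so that the trimmed mean of each array is 500. The median signal of an array ran between 26.7 and 34.0. The 5′ probe set of actin, a control for intact RNA, was low on 2 of the 18 arrays, with a log2 signal of 5.90 in the 0.1 ppm reference replicate 1 and 6.85 in the 0 ppm reference replicate 3, against 7.75 to 9.70 on the other 16. The 3′ minus 5′ log2 difference of actin was 8.67 and 7.57 on these 2 arrays, against 4.24 to 6.75 on the other 16. That of GAPDH, a second such control, was 0.15 and 0.16 on the same 2 arrays. Over all 18 arrays it ran from 0.15 to 0.64, so this second control did not mark them as less intact. All 6 epithelial markers, KRT8, KRT18, KRT19, EPCAM, CDH1 and CLDN1, lay above the median probe set. Of 5 markers of leukocytes, endothelium and fibroblasts, PTPRC, CDH5 and DCN lay below it, with every signal of PTPRC at 12.1 or less, PECAM1 lay close to it and COL1A1 above it. The number of arrays limits the precision.

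MT2A, the isoform that most human tissues make in the largest amount, was measured by 1 probe set (212185_x_at). At 0 ppm its signals were 7043, 8719.7 and 6712 in the exposure chamber, against 6516, 8379.8 and 9900.2 in the reference chamber for replicates 1, 2 and 3. At 0.1 ppm they were 6010.0, 7063 and 11410.0 in exposed cultures, against 9262, 7008 and 7047 in their references. At 0.5 ppm they were 6762, 5997 and 10762 in exposed cultures, against 6185, 9157 and 9266 in their references. The groups overlapped at every concentration, and the highest of the 18 values, in the 0.1 ppm exposed replicate 3, came from the same group as the second lowest, in replicate 1. Group means of the 6 groups lay between 7491 ± 1076 in the exposure chamber at 0 ppm and 8265 ± 1695 in the reference chamber at 0 ppm (SD, n = 3 each), and no group differed from its neighbour in that order by more than the SDs.

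MT1X, an isoform of the MT1 group at the end of the cluster, gave signals of 3801, 3939 and 3155 in the exposure chamber at 0 ppm, against 3745, 3469 and 3413 in the reference chamber (208581_x_at). At 0.1 ppm the values were 3174, 4284 and 4714 in exposed cultures, against 2855, 4617 and 3924 in their references. At 0.5 ppm they were 3751, 3164 and 4498 in exposed cultures, against 3380.5, 3832 and 4133 in their references. All 3 pairs of groups overlapped, and MT1X had the narrowest range of any member, with a highest value 1.65 times the lowest. The other probe set (204326_x_at) ran between 1965 and 4379, with its lowest value in the 0.1 ppm reference replicate 1, the array with the lowest actin signal.

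MT1H, which lies next to MT1G in the cluster, was nearly constant in the exposure chamber at 0 ppm, with signals of 2755, 2714 and 2612, against 2778, 2934 and 2437 in the reference chamber. At 0.1 ppm the values were 2639, 3497 and 2642 in exposed cultures, against 1398, 3349 and 3439.6 in their references. At 0.5 ppm they were 3001, 2365 and 3392 in exposed cultures, against 2661, 2825 and 3429.6 in their references. The value of 1398 was by itself below the other 17, which lay between 2365 and 3497, and it again came from the array with the lowest actin signal.

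MT1F, another zinc-binding MT1 isoform, had signals of 1674, 1886 and 1634 in the exposure chamber at 0 ppm, against 1606, 1845 and 1731 in the reference chamber (217165_x_at). At 0.1 ppm these were 1526, 1735 and 2655 in exposed cultures, against 1350.0, 1807 and 2104 in their references. At 0.5 ppm they were 1610.4, 1543 and 2469 in exposed cultures, against 1457, 2263 and 2470.0 in their references. Replicate 3 was the highest of its group at 0.1 and 0.5 ppm, in exposed cultures and in their references alike. The other probe set (213629_x_at) ran between 1225 and 2559 and was also highest in the 0.1 ppm exposed replicate 3. Its references were instead highest in replicate 1 at 0.1 ppm (1698) and in replicate 2 at 0.5 ppm (2165).

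MT1G, an isoform often silenced in carcinomas, had the lowest signals of its brighter probe set (204745_x_at) in the exposure chamber at 0 ppm, with 995, 843 and 912, against 1028, 869 and 1375 in the reference chamber. At 0.1 ppm the values were 946, 1277 and 2324 in exposed cultures, against 1467, 1214 and 1396 in their references. At 0.5 ppm they were 1072, 1409 and 1197 in exposed cultures, against 1250.0, 1746 and 1304 in their references. The 3 values of the 0.5 ppm exposed cultures all lay above the 3 values at 0 ppm in the same chamber, whereas in each pair of chambers the groups overlapped. The order of group means, low to high, began with the exposure and the reference chamber at 0 ppm, at 917 ± 76.3 and 1090.4 ± 259 (SD, n = 3 each), so both arms of the 0 ppm experiments lay lowest.

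MT1E, an MT1 isoform between MT2A and MT1M in the cluster, varied most among the 6 genes, with signals of 399, 551 and 462 in the exposure chamber at 0 ppm, against 486, 347 and 271 in the reference chamber (216336_x_at). At 0.1 ppm they were 289, 389.9 and 478 in exposed cultures, against 206, 436 and 567 in their references. At 0.5 ppm they were 379, 272 and 638 in exposed cultures, against 383, 329 and 483 in their references. The groups overlapped throughout. Its other probe set (212859_x_at) ran between 30.7 and 117.

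**Figure D2:**
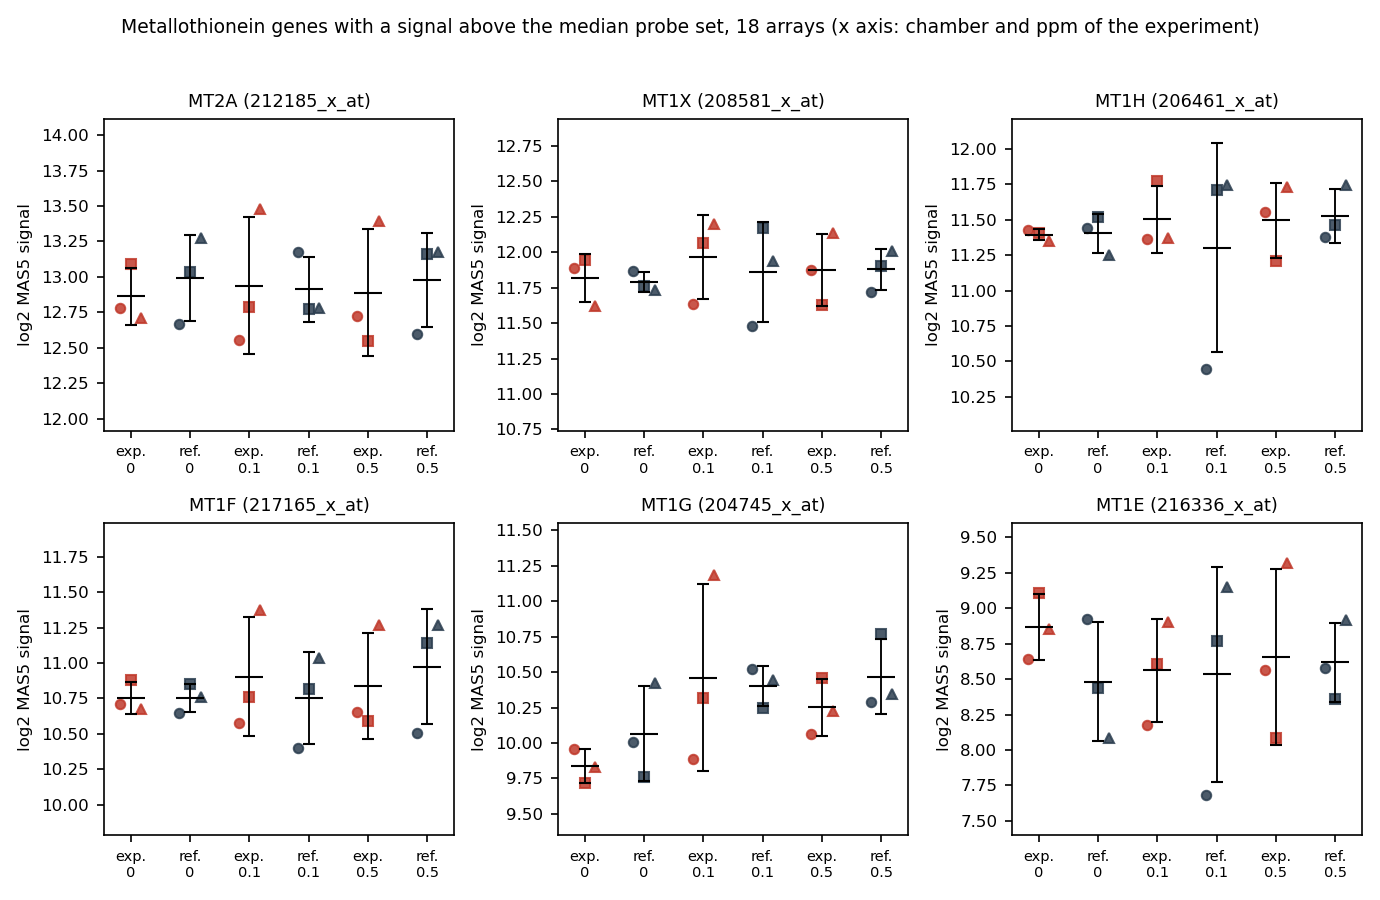
Log2 MAS5 signals of the brighter probe set of MT2A, MT1X, MT1H, MT1F, MT1G and MT1E on the 18 arrays, exposure chamber in red and left of its reference chamber in dark blue for the 0, 0.1 and 0.5 ppm experiments, with circles, squares and triangles for replicates 1, 2 and 3, bars for the mean and whiskers for 1 SD (n = 3), each panel spanning the same width in log2 units. Exposure and reference cultures overlap in every pair, MT1H has 1 low value in the 0.1 ppm reference, and the 0 ppm exposure group of MT1G lies lowest in its panel.

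With 0 ppm in both chambers, which asks what the chamber itself does, 0 of the 12 probe sets reached an unadjusted p below 0.05 in limma, the cutoff of the study, against 4.84% of all probe sets. After Benjamini-Hochberg adjustment 0 of the 12 and 0% of all probe sets passed, here and in every comparison that follows. In 0 of the 12 did the groups not overlap, against 10.0% of all probe sets. The median log2 difference, exposure minus reference, was 0.02 for the 12 probe sets and -0.07 for all, and without single arrays that of the 12 ranged over -0.046 to 0.086, below 0 without exposure replicate 1 or 2. Among the brighter probe sets of the 6 genes above the median signal, MT1E had the largest value, at 0.38 ± 0.33 (SE, adjusted p = 0.880). MT2A differed by -0.13, with a 95% interval of -0.85 to 0.59, and MT1X by 0.03, with an interval of -0.59 to 0.65.

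At 0.1 ppm against the reference chamber, 0 of the 12 probe sets passed, against 4.00% of all, 0 were without overlap, against 7.87% of all, and the median difference was 0.11 against -0.07 for all probe sets. Without single arrays the median of the 12 ranged over -0.056 to 0.28, below 0 without exposed replicate 3. MT2A differed by 0.03 (95% interval -0.94 to 0.99), MT1X by 0.10 (-0.82 to 1.02), MT1G by 0.06 (-1.01 to 1.13) and MT1F by 0.15 (-0.81 to 1.12). MT1H differed by 0.20 (-0.95 to 1.35) and MT1E by 0.03 (-1.17 to 1.23). Single arrays set the direction of these values. Without the reference replicate 1, the array with the lowest actin signal, MT1H was at -0.23, MT1X at -0.09, MT1F at -0.03 and MT1E at -0.40, and without the exposed replicate 3 MT2A was at -0.24, MT1G at -0.30, MT1F at -0.08, MT1E at -0.14 and MT1X at -0.01. The part of RNA quality in these values was not tested.

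At 0.5 ppm against the reference chamber, 0 of the 12 passed, against 3.92% of all, and 0 were without overlap, against 6.75% of all, with a median of -0.02 for the 12 and -0.04 for all. Without single arrays the median of the 12 ranged over -0.25 to 0.096, above 0 without exposed replicate 2 or reference replicate 3. The values were -0.09 for MT2A (95% interval -0.93 to 0.75), -0.0013 for MT1X (-0.62 to 0.62), -0.03 for MT1H (-0.68 to 0.61), -0.14 for MT1F (-0.97 to 0.70), -0.22 for MT1G (-0.86 to 0.43) and 0.04 for MT1E (-0.93 to 1.00). With the replicate number as a block, taken to pair both chambers of an experiment, 1 probe set passed. It was that of MT1M (-1.25, unadjusted p = 0.0285, adjusted p = 0.919 in limma), whose signals reached at most 2.09 on these 6 arrays. For MT1X the interval was the narrowest of the 6 and reached a log2 difference of 0.62 either way, so these arrays do not exclude shifts in level within that range. As RNA of whole cultures was measured, fewer cells making a transcript and less of it per cell cannot be told apart.

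Within the exposure chamber, cultures at 0.1 ppm were set against those at 0 ppm, which keeps the chamber but not the day of the experiment the same. 0 of the 12 passed, against 4.47% of all, with a median of 0.13 against -0.03 for all probe sets. Without exposed replicate 3 at 0.1 ppm the median of the 12 was -0.073, and without replicate 1 it was 0.29. Among the brighter probe sets of the 6 genes above the median signal, MT1G had the largest difference, 0.63 ± 0.38 (SE, adjusted p = 1.00, 95% interval -0.32 to 1.57), and it was 0.27 without the 0.1 ppm exposed replicate 3. MT1X differed by 0.15, MT1F by 0.15, MT1H by 0.11, MT2A by 0.08 and MT1E by -0.30.

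At 0.5 ppm against 0 ppm in the exposure chamber, 0 of the 12 passed, against 4.56% of all, with a median of 0.05 against -0.04 for all probe sets. The median of the 12 was -0.11 without exposed replicate 3 at 0.5 ppm, -0.043 without replicate 3 at 0 ppm and 0.19 without exposed replicate 2 at 0.5 ppm. The same 0 ppm arrays served both comparisons. MT1G differed by 0.41 ± 0.22 (SE, unadjusted p = 0.114, adjusted p = 1.00, 95% interval -0.14 to 0.96). It and MT1F 213629_x_at, at 0.27 ± 0.22 (SE), were the 2 member probe sets whose 3 exposed values all lay above the 3 values at 0 ppm, where 3.62% of all probe sets did so. The second MT1F probe set differed by 0.08 and overlapped. MT1G passed the threshold when a constant of 32 was added to the signals before the logarithm (0.40, unadjusted p = 0.0194) and with a variance prior that follows the signal level (unadjusted p = 0.0309), and in neither case after adjustment over all probe sets. Set against the references of the same experiments, the difference of MT1G was -0.22, and the chamber difference at 0.5 ppm minus that at 0 ppm was 0.0093 (95% interval -0.79 to 0.81). The reference cultures of the 0.5 ppm experiments also lay above those of the 0 ppm experiments for MT1G, by 0.40 ± 0.33 (SE), with overlapping groups.

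**Figure D3:**
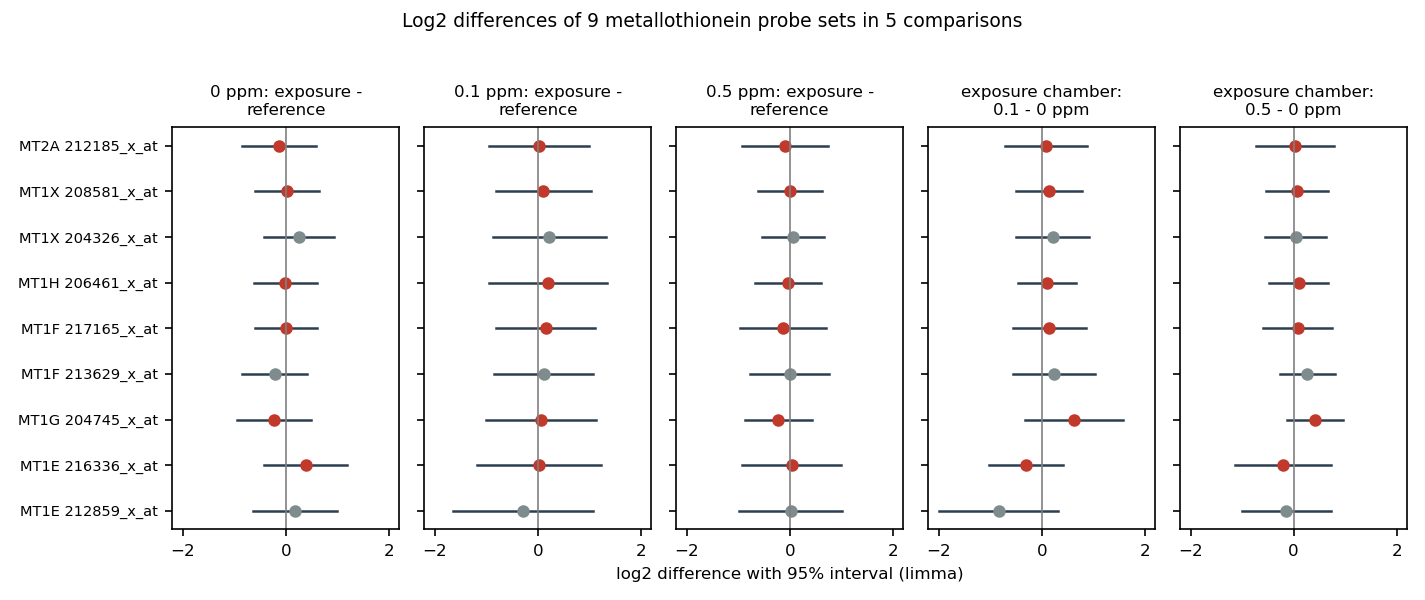
Log2 differences (dots) with 95% intervals from limma (lines) of the 9 metallothionein probe sets above the median signal, 3 arrays against 3, for exposure minus reference at 0, 0.1 and 0.5 ppm and for 0.1 minus 0 and 0.5 minus 0 ppm in the exposure chamber, with the brighter probe set of each gene in red and the other in grey. Every interval crosses 0, and the dots of MT1G lie farthest to the right in both comparisons within the exposure chamber.

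The change of the chamber difference from 0 ppm was tested as an interaction. 0 of the 12 passed at 0.1 ppm, against 3.21% of all, and 0 at 0.5 ppm, against 3.69% of all. For MT2A the difference was 0.16 at 0.1 ppm (95% interval -0.84 to 1.16) and 0.04 at 0.5 ppm (-0.91 to 1.00), and for MT1X it was 0.07 (-0.81 to 0.95) and -0.03 (-0.73 to 0.66). With the replicate block 1 probe set, that of MT1M, passed at 0.1 ppm (unadjusted p = 0.0411, adjusted p = 1.00 in limma). Between the reference chambers, which never held formaldehyde, 0 of the 12 passed for the 0.1 against the 0 ppm experiments, against 3.68% of all, and 1 for the 0.5 against the 0 ppm experiments, against 4.54% of all.

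That 1 probe set was the one of MT3, the isoform best known from brain, where it was found as a growth inhibitory factor. Its signals were 10.6, 8.01 and 3.68 in the references of the 0.5 ppm experiments, against 2.73, 3.34 and 3.28 in those of the 0 ppm experiments, without overlap (3.43% of all probe sets were higher in this way), with an unadjusted p of 0.0498 and an adjusted p of 0.924 in limma. It no longer passed with all 18 arrays in 1 fit, with log2(signal + 32), with the variance trend, without the arrays of low actin signal or without any 1 of 5 of the 6 arrays, all but the 0.5 ppm reference replicate 3. In the exposure chamber it had 2.85, 19.7 and 6.61 at 0 ppm, 2.32, 3.71 and 12.5 at 0.1 ppm and 6.54, 1.12 and 3.98 at 0.5 ppm. All of these values are below the median signal of the arrays.

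MT1M, an MT1 isoform known from liver, had the only one of the 12 probe sets past the threshold in a comparison of exposed cultures, 0.5 against 0.1 ppm, where 3.82% of all probe sets passed. Its signals were 0.415, 0.363 and 0.950 at 0.5 ppm, against 1.06, 2.60 and 5.08 at 0.1 ppm in the exposure chamber, so the groups did not overlap (3.25% of all probe sets were lower without overlap). The unadjusted p was 0.0203 and the adjusted p 1.00 in limma, and the unadjusted p was above the threshold without any 1 of 4 of the 6 arrays, at 0.0516 to 0.0646. With a constant of 32 added to the signals the difference was -0.10 (unadjusted p = 0.288). In the exposure chamber at 0 ppm the values were 3.35, 0.920 and 0.346, and in the 9 references they lay between 0.426 and 4.03. The second probe set of MT1G (210472_at) ran between 0.638 and 13.6, in an order of arrays unlike that of the first (Pearson r = -0.49 over the 18 arrays).

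**Figure D4:**
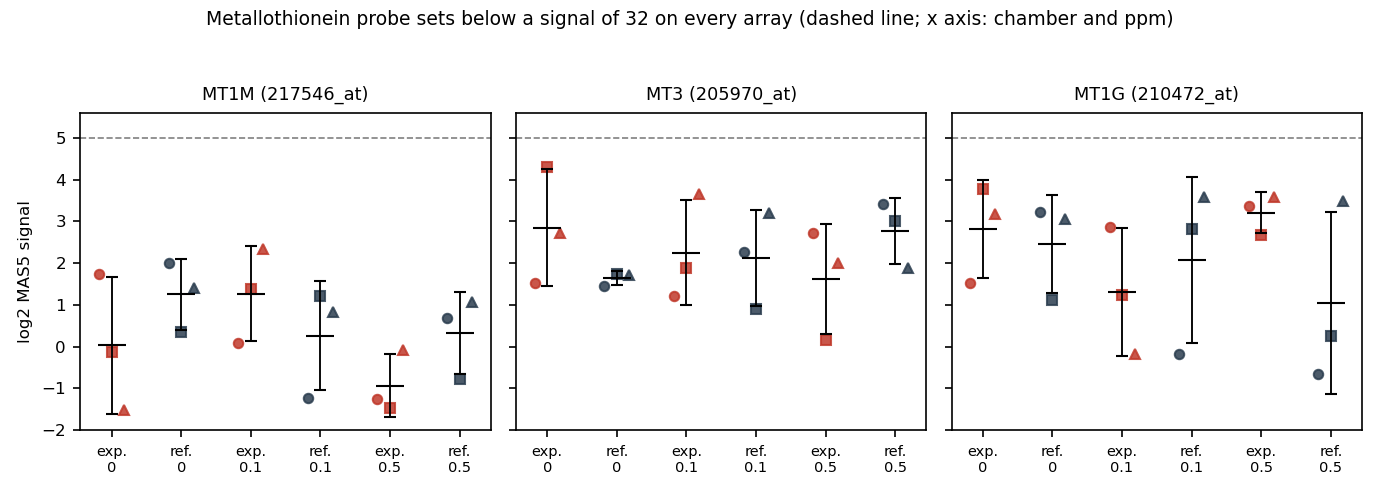
Log2 MAS5 signals of the 3 metallothionein probe sets that stayed below 32 on every array, MT1M, MT3 and MT1G 210472_at, laid out as in the plot of the 6 brighter genes, with the dashed line at a signal of 32. The 0.5 ppm exposure values of MT1M lie below all its 0.1 ppm exposure values, and the spread within groups reaches several log2 units.

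Taken experiment by experiment, exposure minus reference culture, MT1X 204326_x_at was higher in the exposure chamber in 8 of 9 experiments, by a median of 0.17, with 3 of 3 at 0 ppm, 3 of 3 at 0.1 ppm and 2 of 3 at 0.5 ppm. The other probe set of MT1X was higher in 6 of 9, with values between -0.28 and 0.26. MT1G was lower in the exposure chamber in 7 of 9, by a median of -0.12. MT2A was higher in 6 of 9, between -0.62 and 0.70, MT1F in 5 of 9 and MT1H and MT1E in 4 of 9 each. How many of all probe sets have such counts was not determined. These counts were looked at after the values were known and were not tested. They also rest on equal replicate numbers marking the same experiment, which the labels do not state.

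Of the 12 probe sets 7 had a spread over the 18 arrays below that of the typical probe set above the median signal, and 5 had a wider one. The 7 were bright, at percentiles of mean signal from 86.8 to 97.9, and were not set against probe sets of equal signal. The SD of the log2 signal was 0.21 for MT1X, 0.28 for MT1F, 0.30 for MT2A, 0.30 for MT1H, 0.37 for MT1G and 0.43 for MT1E in the brighter probe set of each gene, against a median SD of 0.41 over the 27337 probe sets above the median signal. It was 0.55 for MT1E 212859_x_at, and among the probe sets below a signal of 32 it was 1.05 for MT3, 1.24 for MT1M and 1.51 for MT1G 210472_at. Over the 9 references alone it was 0.20 for MT1X, 0.26 for MT2A and 0.46 for MT1E, against a median of 0.44.

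MT2A followed MT1F 213629_x_at with a Pearson r of 0.86 over the 18 arrays and of 0.90 over the 9 references. The 2 probe sets of MT1X followed each other (r = 0.90) and also MT1H (0.72 and 0.76) and MT1E 216336_x_at (0.71 and 0.78). Between these sets the r over the 18 arrays was 0.07 for MT2A and MT1X 204326_x_at, -0.09 for MT2A and MT1H and 0.14 for MT2A and MT1E 216336_x_at. MT1F 217165_x_at lay between them, with an r of 0.69 to MT2A and 0.76 to MT1X 208581_x_at. The r values of MT2A with the MT1X, MT1H and MT1E 216336_x_at probe sets were higher when the 2 arrays of low actin signal were left out. Without them its r was 0.47 with MT1X 204326_x_at, 0.29 with MT1H, 0.51 with MT1E 216336_x_at and 0.67 with MT1X 208581_x_at, the last against 0.39 over all 18. Over the 9 references, which hold both of these arrays, the same 4 values were -0.58, -0.34, -0.60 and -0.27. The 2 probe sets of MT1E ran against each other (r = -0.38). All these values share the arrays, their scaling and, for the _x_at probe sets, possibly probes, and are given as a description.

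**Figure D5:**
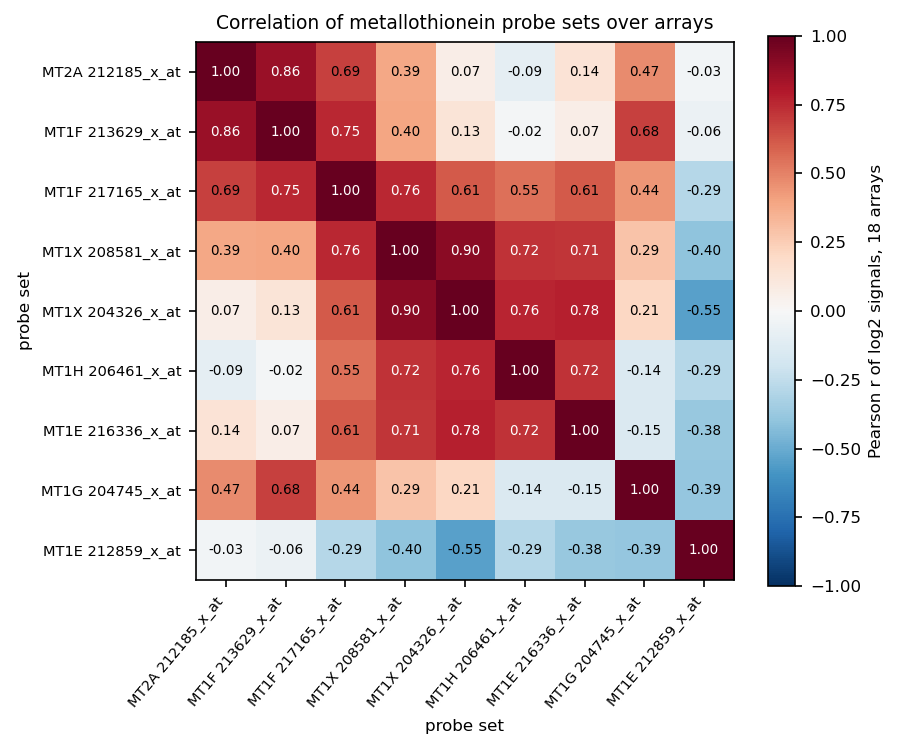
Pearson r between the log2 signals of the 9 metallothionein probe sets above the median signal over the 18 arrays, red for positive and blue for negative values. MT2A and MT1F 213629_x_at form a red corner (0.86), and both MT1X probe sets with MT1H and MT1E 216336_x_at form a second red block (0.71 to 0.90). MT1E 212859_x_at is negative to all other probe sets, from -0.55 with MT1X 204326_x_at to a value near 0 with MT2A (-0.025).

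Properties of the arrays moved with both sets of genes. The r of MT2A with the actin 5′ signal was -0.59, and with the 99th percentile of the array's signals it was 0.83, or 0.80 without the 2 arrays of low actin signal. For MT1H the r with the actin signal was 0.66 over 18 arrays and 0.09 over 16, and for MT1X 204326_x_at it was 0.61 and 0.13. The part of these properties in the levels was not tested. The 5 probe sets outside the family most like MT2A, among 22879 with a single gene and a signal above the median, were those of the calcium-binding protein S100A13 (r = 0.92), the isoprenoid enzyme IDI1 (0.92), the mitochondrial cytochrome oxidase subunit COX2 (0.91), the ATP synthase subunit ATP5PB (0.91) and the phosphatase PTP4A2 (0.90). All 5 had negative r values with the actin 5′ signal too, between -0.57 and -0.68. The 5 most like MT1X 208581_x_at were the cyclin-dependent kinase partner CKS1B (0.89), the mitotic spindle protein DLGAP5 (0.83), the phosphatase 2A subunit PPP2R5C (0.81), the chromatin protein HMGB1 (0.81) and the splicing factor CWC27 (0.80). No gene was among the 5 most like both.

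Of the other genes of the family, 2 had a probe set that names them alone. The probe set of MT1HL1, metallothionein 1H like 1, on chromosome 1, ran between 1617 and 3556. It carries the suffix _x_at, so signal from other metallothioneins can reach it. How much of its signal came from MT1HL1 itself was not tested. MT4, known from stratified epithelium, had signals between 2.67 and 22.8 and averaged 6.95 ± 2.93 in the exposure chamber at 0 ppm and 19.0 ± 4.35 in the reference chamber (SD, n = 3 each, unadjusted p = 0.0135, adjusted p = 0.850 in limma), all below 32. In that comparison 4.84% of all probe sets passed the unadjusted threshold. Among genes that handle zinc 0 of 18 passed the threshold in each of the 6 comparisons that involve the exposure chamber, where 3.82% to 4.84% of all probe sets passed. MTF1 averaged 393 ± 70.3 at 0.1 ppm, against 351 ± 156 in its references, and 439.7 ± 68.0 at 0.5 ppm, against 430.0 ± 55.8 in its references (SD, n = 3 each). SLC30A1 averaged 7480.0 ± 1052 at 0.1 ppm, against 6328 ± 544 in its references, and 7628 ± 1253 at 0.5 ppm, against 6664 ± 849 in its references. At 0 ppm SLC30A1 averaged 7579 ± 239.8 in the exposure chamber, against 6121 ± 547 in the reference chamber, so its mean was above that of the reference without formaldehyde as well. The log2 differences were 0.31 without formaldehyde, then 0.24 and 0.19 with rising concentration, none past the threshold. In the same comparisons 0 of 9 genes of copper handling and 0 of 7 glucocorticoid targets passed. The medians at 0.1 and 0.5 ppm against the references were 0.16 and 0.0021 for the zinc genes, -0.053 and -0.055 for the copper genes and 0.29 and -0.15 for the glucocorticoid targets. For all probe sets the same medians were -0.073 and -0.042.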

How the data were processed

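RNA was amplified and labelled from the 3′ end and hybridised by the authors to Affymetrix HG-U133 Plus 2.0 arrays, 1 per chamber and experiment. The deposited values are MAS5 signal intensities on a linear scale, which the authors computed and scaled to a trimmed mean of 500 over the probe sets of each array (2% trimmed at each end). Probe sets took their gene from the platform annotation. For the comparisons the deposited intensities were put on the log2 scale without a filter or an added constant. Arrays were grouped by the chamber and concentration in their labels. Each comparison was fitted on its own arrays across all 54675 probe sets with lmFit and eBayes in limma 3.58.1 (R 4.3.3), the chamber differences with an interaction term, and p-values were adjusted by Benjamini-Hochberg over all probe sets. The main fits used no block, as in the study. Replicate numbers were taken to pair both chambers of an experiment, which by the methods were cultivated at the same time. The labels do not state that equal numbers mark the same experiment. Deviations from the group means correlated between the chambers of the same number by a median r of 0.32 over 9 pairs, 6 of them over 0.1. Between other numbers the median r was -0.11 over 18 pairs, 2 of them over 0.1. Deviations within a group cancel out, so these medians are not independent and do not settle the pairing. At 0.1 ppm the same-number r was 0.049, 0.49 and 0.0086 for replicates 1, 2 and 3. Exposed replicate 3 had an r of 0.28 with reference replicate 1 there. The fit with the replicate number as a block was checked as an alternative. Other alternatives were 1 fit of all 18 arrays, quantile normalization, log2(signal + 32), a variance trend, probe sets above the median signal, the gene's other probe set, and leaving out single arrays or the 2 with a low actin signal. The fits were tested on simulated data. All 8 genes are named with every probe set, the brightest per gene in full, MTF1 and SLC30A1 always, genes of the other lists where they passed p = 0.05 in a comparison with the exposure chamber, and the 5 probe sets most correlated with MT2A and MT1X. The members and lists were chosen with earlier results of these data known. Promoters came from RefSeq.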

Additional observations from a re-analysis of the deposited data

Results flagged for a closer look

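For MT1M (217546_at) the chamber difference pointed one way in all 3 experiments at 0.1 ppm and the other way in all 3 at 0 ppm, with means of 1.01 and -1.22 on the log2 scale. The difference between them was 2.22 ± 1.34 (SE, unadjusted p = 0.126 in limma). With the replicate number as a block, taken to pair the chambers of an experiment, the same difference had an SE of 0.86 and passed the threshold (unadjusted p = 0.0411, adjusted p = 1.00 in limma). At 0.5 ppm all 3 experiments again pointed down, by a mean of -1.25, which differs from that at 0.1 ppm by -2.26, a difference that was not tested. All 18 signals of this probe set lay between 0.346 and 5.08. It was flagged on these same values, so the p-values above do not test the pattern separately. The share of all probe sets with such a pattern of signs was not counted.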

How the results depend on the processing

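Of 390 log2 differences of single genes recomputed under the alternatives, 325 kept their direction and side of the threshold, 56 changed sign and 0 of these passed the threshold. The counts below are of member probe sets past an unadjusted p of 0.05. With the replicate block 1 probe set (MT1M) passed at 0.5 ppm against the reference and 1 for the chamber difference at 0.1 against 0 ppm, against 0 without it, and the block changed no other count or call. A variance trend gave 1 (MT1G) for 0.1 against 0 ppm (difference 0.63, unadjusted p = 0.0382) and 1 for 0.5 against 0 ppm (0.41), where log2(signal + 32) also gave 1. For 0.5 against 0.1 ppm the count fell to 0 with log2(signal + 32), with the trend and above the median signal, where MT1M is not tested. For the references of the 0.5 against the 0 ppm experiments it fell to 0 with all 18 arrays, with log2(signal + 32), the trend, above the median signal and without the arrays of low actin signal. Quantile normalization put MT2A at -0.043 for 0.1 ppm against its reference. Without the arrays of low actin signal MT2A was at 0.010 at 0 ppm, and at 0.1 ppm MT1E was at -0.40, MT1F at -0.025, MT1H at -0.23 and MT1X at -0.089. The gene's other probe set gave -0.21 for MT1F at 0 ppm, -0.29 for MT1E at 0.1 ppm and 0.064 for MT1X at 0.5 ppm. That of MT1G, below 32 on every array, gave 0.36, -0.78 and 2.18 at 0, 0.1 and 0.5 ppm against the reference and -1.51 for 0.1 against 0 ppm. The cause was not tested.

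Leaving out single arrays moved the counts between 0 and 2 at 0 ppm (2 without exposure replicate 1), 0 and 1 at 0.5 ppm against the reference (1 without exposed replicate 3 or reference replicate 2 or 3), 0 and 2 for 0.1 against 0 ppm (2 without exposed replicate 1 at 0.1 ppm), and 0 and 3 for 0.5 against 0.1 ppm (3 without that same array, 0 without any of exposed replicates 2 and 3 at 0.1 ppm and 1 and 2 at 0.5 ppm). For the references of the 0.5 against the 0 ppm experiments the range was 0 to 2 (2 without replicate 3 at 0.5 ppm, 0 without any other array). For the chamber difference it was 0 to 1 at 0.1 ppm (1 without the 0 ppm exposure replicate 1) and 0 to 2 at 0.5 ppm (2 without the 0.5 ppm reference replicate 3, 1 without exposure replicate 1 at 0 or 0.5 ppm). The probe sets concerned were those of MT1M and MT3, MT1G 210472_at and MT1E 212859_x_at. Without 1 array the log2 differences at 0 ppm ranged over -0.061 to 0.051 for MT1F, -0.084 to 0.050 for MT1H, -0.032 to 0.13 for MT1X and -0.29 to 0.010 for MT2A. At 0.1 ppm against the reference they ranged over -0.40 to 0.34 for MT1E, -0.084 to 0.32 for MT1F, -0.30 to 0.35 for MT1G, -0.23 to 0.42 for MT1H, -0.089 to 0.27 for MT1X and -0.24 to 0.22 for MT2A. At 0.5 ppm against the reference they ranged over -0.29 to 0.32 for MT1E, -0.37 to 0.012 for MT1F, -0.15 to 0.11 for MT1H, -0.13 to 0.12 for MT1X and -0.34 to 0.081 for MT2A. For 0.1 against 0 ppm they ranged over -0.086 to 0.31 for MT1F, -0.028 to 0.17 for MT1H and -0.19 to 0.27 for MT2A. For 0.5 against 0 ppm they ranged over -0.54 to 0.075 for MT1E, -0.13 to 0.21 for MT1F, -0.016 to 0.24 for MT1H, -0.069 to 0.18 for MT1X and -0.22 to 0.20 for MT2A. For MT1M at 0.5 against 0.1 ppm the range was -2.80 to -1.66. An arm left with 2 arrays borrows its spread from the fit, and 3 arrays per group leave intervals wider than most of these values.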
